A study of Mus musculus with 24 samples.

Results

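The 32 genes described here are made mainly by hepatocytes, the parenchymal cells of the liver. They were chosen by gene symbol from a fixed list and fall into 18 genes of proteins that hepatocytes secrete into plasma, 12 genes of metabolic enzymes, and 2 others, the fatty acid carrier Fabp1 and the transcription factor Hnf4a. The libraries were made from cells that the labels call neutrophils, and which cells in them held the transcripts of the members was not tested. All 32 had a row among the 22505 of the antibody table, and 30 had a row among the 18474 of the blood and liver table, where Cyp1a2 and G6pc had none. Every member with a row passed the filter on low counts.

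Bulk mRNA sequencing was done on cells of NOD.c3c4 mice, a congenic line of the NOD strain that develops autoimmune biliary disease. Mice of the treated groups were given PDC166-coated nanoparticles, which carry peptide-loaded MHC, into the vein in 10 doses, and untreated mice were given none. The first table held 2 treated liver, 2 untreated liver, 2 treated blood and 3 untreated blood libraries. The second held treated liver libraries from mice also given a blocking antibody, namely 3 anti-GCF, 3 anti-IL21R, 2 anti-TGFb, 2 anti-IL35 and 2 anti-IL10 libraries, with 3 isotype control antibody libraries as their reference. The labels do not define GCF and do not say that replicates came from separate mice, so the p-values below measure the spread between these libraries, which may be technical.

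Hepatocytes release albumin, transferrin, apolipoproteins and the fibrinogen chains through the secretory pathway, and their messages are translated on the endoplasmic reticulum. The same cells hold the enzymes of the urea cycle, tyrosine breakdown, gluconeogenesis and drug oxidation, none of which leave the cell. Both groups of genes depend in the adult liver on transcription factors of the HNF1, HNF4 and C/EBP families. Neutrophils are short-lived granulocytes that are not known for making most of these products. In bulk samples, fewer cells of a type and less RNA per cell cannot be told apart.

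The libraries held between 34724353 and 46384502 counts in the blood and liver table and between 23559681 and 47469935 in the antibody table. Levels are given as CPM, the counts of a gene scaled to a common library total, after adjustment by the trimmed mean of M-values (TMM), and the 2 tables were normalised separately. The 12 neutrophil marker genes summed to between 209000 and 210200 CPM in treated liver, against 32360 to 35290 CPM in untreated liver, and to between 86720 and 89660 CPM in treated blood, against 112900 to 277500 CPM in untreated blood. In the antibody table their sum lay between 21310 and 32100 CPM in anti-GCF libraries, 101100 and 107000 CPM in anti-TGFb libraries, 50810 and 119200 CPM in anti-IL10 libraries, and 170000 and 210800 CPM in isotype libraries. Treated and untreated libraries carried library numbers in separate ranges, and the anti-GCF libraries were numbered apart from the other antibody libraries. The labels call none of these ranges a batch, and any difference of handling that goes with them cannot be told apart from the groups.

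The members together took between 0.0308% and 0.0336% of all counts in treated liver, against 2.72% to 3.51% in untreated liver. Treated blood gave 0.0381% to 0.0397%, against 0.0278% to 0.0521% in untreated blood. In the antibody table the share was highest in the anti-TGFb libraries, at 0.13% and 0.161%, against 0.0149% to 0.0413% in isotype libraries. Untreated liver therefore stood apart from every other group by the share of counts that the members took, as the map of all members by library shows.

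**Figure D1:**
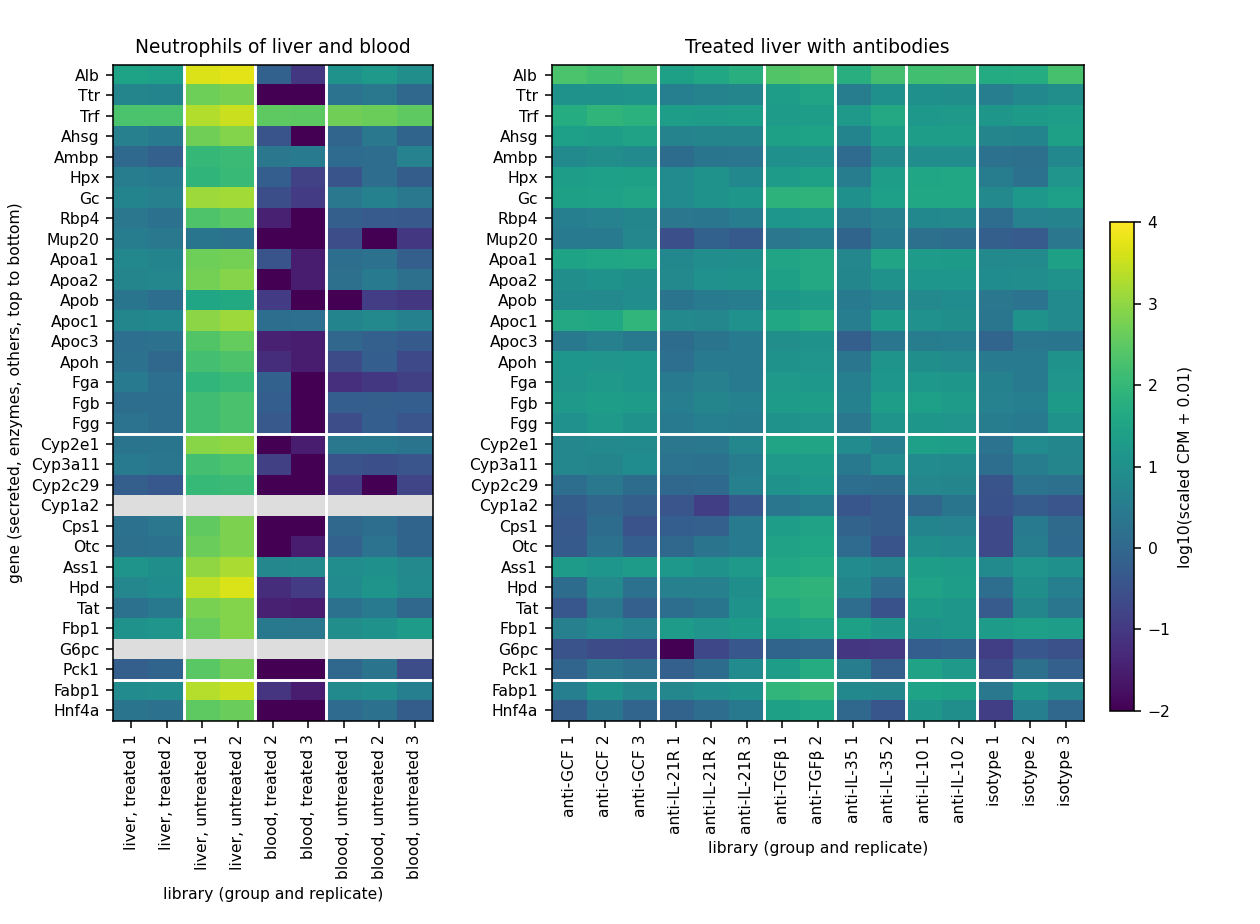
Level of each member (rows, by class) in each library (columns, by group and replicate), coloured by the log10 of scaled CPM plus 0.01, with the blood and liver table on the left, the antibody table on the right, and grey where a table had no row. The untreated liver columns are the brightest for 29 of the 30 members on the left, all but Mup20, and on the right the anti-TGFb columns are brighter than the isotype columns for most enzyme genes.

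Untreated liver also showed the order of these genes most clearly. Per kilobase of exon, Fabp1 came first at 4900 CPM per kb, followed by Alb at 2230, the tyrosine-breakdown enzyme Hpd at 1690, Apoc1 at 1490 and Apoa2 at 1280 CPM per kb. In treated liver the first place went to Trf at 60.0 CPM per kb, with Fabp1 at 15.1 and Alb at 11.7 CPM per kb. In treated blood Trf had 97.1 CPM per kb and the next member, Ass1, had 2.63 CPM per kb. Trf, which encodes the iron carrier transferrin, was thus the leading member in the treated liver, treated blood and untreated blood libraries of the first table. In untreated blood Trf had 128 CPM per kb, followed by Fabp1 at 11.6 and Fbp1 at 8.20 CPM per kb. The isotype libraries of the second table were also of treated liver. There Alb came first at 40.6 CPM per kb, and Trf had 5.54 CPM per kb.

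For letters that liver transcription factors are known to bind, the 250 bases before the start were searched in 26 members for which RefSeq gave a window (13 secreted, 11 enzymes, Fabp1 and Hnf4a). Apoa2, Rbp4 and Hnf4a had 2 windows each, and a gene was counted if either held the letters. No window was at hand for Apoc1, Apoc3, Ttr, Trf, Mup20 and Cps1. On either strand, the C/EBP letters TTGCNNAA occurred for 8 of 13 secreted genes (for Apoa2 and Rbp4 in 1 of the 2 windows), for 0 of 11 enzyme genes and for Fabp1, which made 34.6% of members, against 10.8% of 27025 gene symbols with a window. The short HNF1 letters GTTAAT occurred in 8 of 26 members (30.8%), against 7.49% of all symbols. The longer HNF1 letters TTAATNATT, which can overlap the short ones, occurred in Gc and G6pc (7.69% against 1.64%), and the HNF4 letters CAAAGTCCA in Cyp3a11 (3.85% against 0.451%). A match describes the letters of the window, not a bound site. The windows of 3 secreted genes that held matches and of 1 enzyme gene that held none are shown, from the 5′ to the 3′ end of the gene's strand, from RefSeq on GRCm38.p6. Alb lies at chr5:90460620-90460869 (+), Fgb at chr3:83049864-83050113 (−), Gc at chr5:89457899-89458148 (−) and Otc at chrX:10252055-10252304 (+), and capitals mark the motif matches.
Alb: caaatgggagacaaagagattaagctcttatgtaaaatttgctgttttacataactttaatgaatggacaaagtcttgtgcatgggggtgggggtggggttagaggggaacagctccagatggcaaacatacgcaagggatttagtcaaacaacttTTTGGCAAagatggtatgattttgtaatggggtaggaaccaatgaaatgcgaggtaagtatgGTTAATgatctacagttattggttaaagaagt
Fgb: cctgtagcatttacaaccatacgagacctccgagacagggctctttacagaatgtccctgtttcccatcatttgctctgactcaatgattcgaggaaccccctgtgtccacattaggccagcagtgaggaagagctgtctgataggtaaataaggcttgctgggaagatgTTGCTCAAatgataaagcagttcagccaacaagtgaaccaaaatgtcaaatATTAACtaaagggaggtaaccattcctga
Gc: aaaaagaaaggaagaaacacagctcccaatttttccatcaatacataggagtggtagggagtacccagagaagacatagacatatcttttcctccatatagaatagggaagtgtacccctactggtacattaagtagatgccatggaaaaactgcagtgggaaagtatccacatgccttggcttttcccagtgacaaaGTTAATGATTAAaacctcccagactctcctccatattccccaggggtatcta
Otc: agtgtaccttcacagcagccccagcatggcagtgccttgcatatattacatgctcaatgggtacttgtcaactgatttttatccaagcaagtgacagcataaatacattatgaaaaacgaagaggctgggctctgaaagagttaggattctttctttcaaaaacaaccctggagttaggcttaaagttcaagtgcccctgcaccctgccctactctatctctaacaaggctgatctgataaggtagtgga
The capitals in Alb are a C/EBP match that begins 94 bases and a short HNF1 match that begins 32 bases before the start. Those in Fgb are the same pair in the same order, beginning 80 and 29 bases before the start. In Gc the short HNF1 match 52 bases before the start runs into longer matches that begin 51 and 49 bases before it.

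In liver, treatment was accompanied by a fall of 29 of the 30 members tested, 17 of 18 secreted and 10 of 10 enzyme genes plus Fabp1 and Hnf4a. Alb, the main plasma protein gene, had 30.24 and 24.58 CPM in treated liver, against 4861 and 5577 CPM in untreated liver. Its log2 fold change was -7.57 (SE 0.61), with an adjusted p of 9.23e-06 in edgeR's quasi-likelihood test with Benjamini-Hochberg adjustment over 16719 genes. Over all genes tested, 27.8% were called higher and 36.3% lower, with a median log2 fold change of -0.29. No member was called higher, none reached an unadjusted p under 0.05 in that direction, and DESeq2 also called 0 higher and 29 lower. The 29 calls held when any of the 4 liver libraries was left out.

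Among the carriers of the secreted class, Gc, the vitamin D binding protein gene, fell most. It had 5.10 and 4.19 CPM in treated liver, against 1302 and 1486 CPM in untreated liver. Its log2 fold change was -8.23 (SE 0.40, edgeR adjusted p = 7.89e-07). Ttr, the gene of the thyroxine carrier transthyretin, had 5.31 and 5.11 CPM in treated liver, against 473.5 and 595.8 CPM in untreated liver. Both genes had groups that did not overlap. Hpx, whose product binds haem, fell by 4.94 on the log2 scale, to 3.57 and 2.89 CPM in treated liver, against 83.2 and 114.7 CPM in untreated liver. Trf changed least of the called members, with 202.9 and 195.3 CPM in treated liver, against 2025 and 3323 CPM in untreated liver and a log2 fold change of -3.75 (SE 0.30, edgeR adjusted p = 8.56e-06).

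Mup20, which encodes a urinary pheromone protein of the major urinary protein family, was the exception. It had 3.30 and 2.53 CPM in treated liver, against 2.11 and 1.73 CPM in untreated liver. The treated values lay above the untreated ones, but the log2 difference of 0.60 did not pass the test (95% interval -0.82 to 2.03, edgeR adjusted p = 0.487). Mup20 belongs to a family of related genes, and whether reads were shared between them was not tested.

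The 6 apolipoprotein genes all fell, with log2 fold changes between -7.56 and -4.50. Apoc1, which encodes a small lipoprotein component, had 5.76 and 6.41 CPM in treated liver, against 905.6 and 1307 CPM in untreated liver. Apob, the backbone protein gene of very-low-density lipoprotein, had 2.14 and 1.43 CPM in treated liver, against 35.6 and 45.1 CPM in untreated liver. The drop was therefore shallower for Apob (log2 -4.50, SE 0.52) than for Apoc1 (log2 -7.51, SE 0.30), although the difference between these genes was not itself tested. Apoa1 and Apoc3, neighbours on chromosome 9 with 2.5 kb between them, fell by 6.50 and by 7.56 on the log2 scale.

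The fibrinogen chains are encoded side by side on chromosome 3 in the order Fgg, Fga and Fgb, with gaps of 11 and 6.5 kb. Fga had 3.09 and 1.57 CPM in treated liver, against 91.1 and 114.5 CPM in untreated liver. Fgb had 1.48 CPM in both treated liver libraries, against 146.9 and 192.4 CPM in untreated liver. Fgg had 1.93 and 1.43 CPM in treated liver, against 144.2 and 191.7 CPM in untreated liver. All 3 chains fell, by 5.47 for Fga, by 6.84 for Fgb and by 6.64 for Fgg on the log2 scale, and no treated library reached an untreated one.

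All 10 enzyme genes tested fell, with a median log2 fold change of -8.09, beside -6.88 over the 18 secreted genes. The gap between the class medians was not tested. Pck1, which encodes the first committed enzyme of gluconeogenesis, had 0.634 and 0.851 CPM in treated liver, against 292.4 and 500.8 CPM in untreated liver. Hpd had 6.05 and 8.31 CPM in treated liver, against 2637 and 4544 CPM in untreated liver. Cyp2e1, an ethanol-oxidising cytochrome P450, had 2.01 and 2.17 CPM in treated liver, against 839.0 and 987.8 CPM in untreated liver. Their log2 fold changes were -9.05 (SE 0.74) for Pck1, -8.96 (SE 0.46) for Hpd and -8.77 (SE 0.28) for Cyp2e1, with edgeR adjusted p-values of 1.90e-05, 1.02e-06 and 6.28e-07 in that order.

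The 3 urea cycle genes all fell in liver. Cps1, the mitochondrial entry enzyme of the cycle, had 1.85 and 2.35 CPM in treated liver, against 352.2 and 666.5 CPM in untreated liver. Otc, the next mitochondrial step, had 1.64 and 1.79 CPM in treated liver, against 421.7 and 656.1 CPM in untreated liver. Ass1, the cytosolic enzyme that joins citrulline and aspartate, kept 12.89 and 9.50 CPM in treated liver, against 987.6 and 1728 CPM in untreated liver. All 3 passed the test, with log2 fold changes of -7.92 for Cps1, -8.29 for Otc and -6.92 for Ass1. Fbp1, a gluconeogenic phosphatase gene, had 12.07 and 13.24 CPM in treated liver, against 411.3 and 757.7 CPM in untreated liver, and at -5.53 was the enzyme gene with the smallest log2 fall.

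Fabp1 and Hnf4a also fell. Fabp1, the liver fatty acid carrier gene, had 7.92 and 8.83 CPM in treated liver, against 2177 and 3243 CPM in untreated liver. Hnf4a, a nuclear receptor required for hepatocyte identity, had 2.06 and 1.73 CPM in treated liver, against 322.0 and 424.7 CPM in untreated liver. The fall was by 8.34 for Fabp1 and by 7.62 for Hnf4a on the log2 scale.

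**Figure D2:**
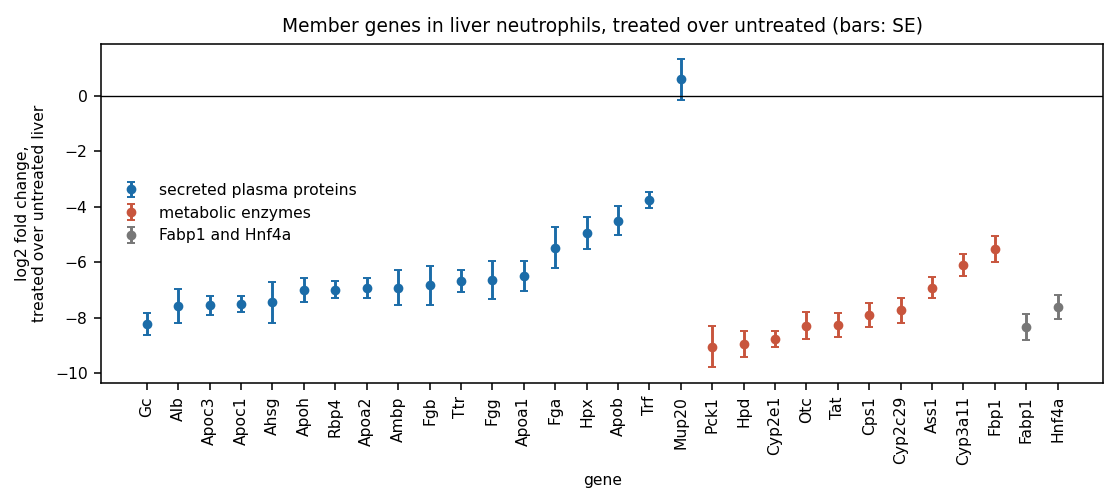
Log2 fold change of each of 30 members in treated over untreated liver, ordered by size within the secreted genes, the enzyme genes, and Fabp1 with Hnf4a, with points for the estimate and bars for the SE. Every point except that of Mup20, at 0.60, lies at or below the -3.75 of Trf.

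Other liver gene lists, which were compiled with earlier results of these data known, gave similar counts. Of 10 further coagulation genes tested, 10 were lower in treated than in untreated liver, as were 13 of 14 further plasma protein genes and 24 of 26 further liver enzyme genes, each with 1 higher, and 6 of 6 liver transcription factor genes and 5 of 5 liver transporter genes. Complement genes were the exception, with 4 of 6 lower and 1 higher. B cell markers summed to between 324.1 and 372.8 CPM in treated liver, against 1603 to 2071 CPM in untreated liver. The 10 Kupffer cell markers summed to between 217.1 and 219.9 CPM in treated liver, against 263.0 to 413.7 CPM in untreated liver. Erythroid markers summed to between 742.2 and 2271 CPM in treated liver, against 113.1 to 130.1 CPM in untreated liver, with 5 of 7 called higher. T and NK cell markers summed to between 252.3 and 272.3 CPM in treated liver, against 68.36 to 113.8 CPM in untreated liver, although 5 of 8 were called lower and 1 higher. These sums, like the neutrophil sum, moved with treatment, and their part in the fall of the members was not tested.

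In blood, treatment went with a fall of 20 of the 30 members, against a background of 17.4% of all genes called higher and 16.2% called lower. The genes called lower were 8 of 10 enzyme genes, 10 of 18 secreted genes, Fabp1 and Hnf4a, and the gap between the classes was not tested. None was called higher, none had an unadjusted p under 0.05 in that direction, and DESeq2 called 0 higher and 22 lower. Hpd had 0.0495 and 0.102 CPM in treated blood, against 7.87, 12.52 and 7.47 CPM in untreated blood, a log2 fold change of -6.84 (SE 0.53, edgeR adjusted p = 0.000217). Fabp1 had 0.0743 and 0.0205 CPM in treated blood, against 6.85, 8.68 and 3.80 CPM in untreated blood, and fell by 7.07 on the log2 scale. For both genes the lowest untreated library stood far above the higher treated one.

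Several members had no count at all in treated blood. Ttr, Cps1, Pck1 and Hnf4a were at 0 in both treated blood libraries, against means of 1.80 CPM for Ttr, 1.13 CPM for Cps1, 1.10 CPM for Pck1 and 1.17 CPM for Hnf4a over 3 untreated blood libraries. With 3 counts over the group taken as the floor, treated blood was at least 53.5-fold lower for Ttr, 33.5-fold for Cps1, 32.8-fold for Pck1 and 34.7-fold for Hnf4a, which covers counting error only. Mup20 and Cyp2c29 were also at 0, but their untreated means were 0.110 and 0.0917 CPM, and neither passed edgeR's test, while DESeq2 and the fit without untreated blood replicate 2 called both lower. With the 6 members at 0 set at their bound, the median log2 fold change was -2.39 for the secreted and -5.05 for the enzyme genes, against fitted medians of -3.03 and -6.32.

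The secreted genes that fell in blood included Alb, Gc and 5 of 6 apolipoprotein genes. Alb had 0.718 and 0.0820 CPM in treated blood, against 12.02, 16.33 and 9.08 CPM in untreated blood, a log2 fold change of -5.02 (SE 0.60, edgeR adjusted p = 0.00072). Apoc1 had 1.46 and 1.54 CPM in treated blood, against 5.09, 6.58 and 4.42 CPM in untreated blood, and its log2 fold change of -1.84 (SE 0.24) was the smallest among the called members. Fbp1 had 2.60 and 2.46 CPM in treated blood, against 9.38, 11.25 and 21.22 CPM in untreated blood, and fell by 2.46. The groups did not overlap for any of these 3 genes.

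Trf, Ambp, Ass1 and the fibrinogen genes were among the 10 members not called in blood. Trf had 330.2 and 314.3 CPM in treated blood, against 506.4, 443.2 and 326.0 CPM in untreated blood, and Ass1 had 6.09 and 6.62 CPM in treated blood, against 8.78, 10.47 and 6.56 CPM in untreated blood. Their groups overlapped, with log2 differences of -0.40 for Trf (95% interval -0.88 to 0.08) and -0.44 for Ass1 (95% interval -1.0 to 0.11). Ambp, whose precursor yields a protease inhibitor and a small carrier protein, had 2.43 and 2.93 CPM in treated blood, against 1.24, 1.35 and 4.46 CPM in untreated blood. Its log2 difference was 0.24 (95% interval -0.72 to 1.19). Without untreated blood replicate 3 Ambp was called higher, with a log2 fold change of 1.05.

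The 2 treated blood libraries differed in the secreted genes. Replicate 2 held 29 counts of Fga, 25 of Fgb and 19 of Fgg, and replicate 3 held 0 of each. Untreated blood had 0.0550, 0.0829 and 0.124 CPM of Fga, against 0.718 CPM in treated replicate 2 and 0 in treated replicate 3. Of the 18 secreted genes, 13 were higher in replicate 2 and 3 in replicate 3. Of the 10 enzyme genes, 3 were higher in replicate 2 and 4 in replicate 3. Such counts were not made over all genes. Without replicate 2, Fgb and Fgg were called lower in treated blood, with log2 fold changes of -7.64 and -7.03. Without replicate 3, Fga was called higher, with a log2 fold change of 3.07. Platelet markers, whose cells carry fibrinogen protein, summed to between 1575 and 1601 CPM in treated blood, against 272.1 to 582.5 CPM in untreated blood, and their part in these values was not tested.

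Among the wider lists in blood, 18 of 26 further liver enzyme genes were lower and 0 higher, while further coagulation genes gave 2 lower and 2 higher of 10. Of 14 further plasma protein genes, 7 were lower and 1 was higher. Of 10 Kupffer cell markers, 7 were called higher in treated than in untreated blood, where 3 of them were at 0. Their sum did not separate the groups, at 642 to 668.2 CPM in treated blood, against 529.1 to 923.1 CPM in untreated blood.

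The fall was tested against tissue by the interaction, which is the treated minus untreated log2 difference in liver minus that in blood. It was negative and called for 15 of 30 members and positive and called for 1, Mup20, which was at 0 in treated blood, beside 31.4% of all genes called negative and 23.3% called positive, with a median over all genes of -0.30. Secreted genes made up 12 of the 15, with 3 of 10 enzyme genes, namely Ass1, Fbp1 and Cyp3a11. Ass1 had an interaction of -6.48 (SE 0.44, edgeR adjusted p = 1.01e-05), since its log2 difference was -6.92 in liver and -0.44 in blood. Apoc1 had -5.67 (SE 0.34), with -7.51 in liver and -1.84 in blood, and Trf had -3.35 (SE 0.37), with -3.75 in liver and -0.40 in blood. For Cps1, Otc, Pck1 and Tat, whose counts in treated blood were at or near 0, the difference between tissues was not called. Among the called members, Apob had 0, 4 and 2 counts in the untreated blood libraries, and Fga was also near 0 there. A fall in blood could hardly have shown for either gene, so their interaction calls carry that limit.

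The share of all genes called with a library left out is not given here, so these counts show only how the calls depend on libraries. The count of negative interactions rested in part on treated blood replicate 2. Without it the negative calls numbered 6 (4 secreted and 2 enzyme genes), and the interaction turned positive, uncalled, for Ahsg, Fgb, Fgg and Cyp3a11. Leaving out any of the other 8 libraries gave between 12 and 17 negative calls. The positive call of Mup20 was lost in 7 of the 9 fits that left out a library.

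Between treated liver and treated blood the members differed gene by gene more than in sum. All members together summed to 340.2 and 320.4 CPM in treated liver, against 347.4 and 328.5 CPM in treated blood, most of it Trf. Gene by gene, 26 of 30 members were called higher in treated liver and 0 lower, beside 9.71% of all genes called higher and 11.6% lower. There were 2 members that had an unadjusted p under 0.05 in the lower direction, and DESeq2 called 25 higher and 1, Ambp, lower. Apoa2, an apolipoprotein of high-density lipoprotein, had 5.36 and 5.92 CPM in treated liver, against 0 and 0.0205 CPM in treated blood, where it had 1 count in all. Rbp4, the retinol carrier gene, had 2.38 and 1.68 CPM in treated liver, against 0.0248 and 0 CPM in treated blood, again 1 count. Against the floor, treated liver was at least 155-fold higher for Ttr, 62.5-fold for Cps1 and 56.3-fold for Hnf4a.

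Trf, Ambp, Fgb and Ass1 were the members not called between treated liver and treated blood. Trf and Ambp were lower in both treated liver libraries than in either treated blood library, with log2 differences of -0.69 (95% interval -1.22 to -0.17, edgeR adjusted p = 0.0994) and -1.56 (95% interval -2.68 to -0.44, edgeR adjusted p = 0.083). Fitted on these 4 libraries alone, both passed the test as lower in treated liver and Ass1 passed as higher, as it did with DESeq2.

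Without treatment, all 30 members tested were higher in liver than in blood, beside 35.6% of all genes called higher and 28.7% called lower. None was lower, also at an unadjusted p under 0.05 and by DESeq2. The log2 difference lay between 2.65 for Trf and 10.38 for Cyp2c29, with a median of 8.63 for the secreted and 8.59 for the enzyme genes. Cyp2c29 is a cytochrome P450 with close paralogs whose reads may be shared. Its mean in untreated blood was 0.0917 CPM, near 0, so the size of its difference is uncertain. Fga had 91.1 and 114.5 CPM in untreated liver, against 0.0550, 0.0829 and 0.124 CPM in untreated blood, a log2 difference of 10.22 (SE 0.88). The count was 30 with any of the 5 libraries left out.

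Summing over each class put the classes side by side in every library. Secreted genes summed to 287.5 and 266.3 CPM in treated liver, against 12320 and 16110 CPM in untreated liver. Enzyme genes summed to 42.7 and 43.5 CPM in treated liver, against 6845 and 10920 CPM in untreated liver. For every 100 secreted CPM there were 14.8 and 16.3 enzyme CPM in treated liver, against 55.5 and 67.8 in untreated liver. Trf alone accounted for most of the treated sums. Without Trf the ratio was 50.5 and 61.3 enzyme CPM per 100 secreted CPM in treated liver, against 66.5 and 85.4 in untreated liver, so that the gap between the groups was narrower.

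In blood the sums were also ruled by Trf. Secreted genes summed to 338.4 and 319.2 CPM in treated blood, against 536.5, 485.9 and 353.6 CPM in untreated blood, and to 8.20 and 4.88 CPM, against 30.07, 42.69 and 27.58 CPM, once Trf was left out. Enzyme genes summed to 8.89 and 9.24 CPM in treated blood, against 33.65, 45.45 and 40.78 CPM in untreated blood. With Trf there were 2.63 and 2.89 enzyme CPM per 100 secreted CPM in treated blood, against 6.27, 9.36 and 11.5 in untreated blood. Without Trf the ratios were 108 and 189, against 112, 106 and 148, and the groups overlapped.

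**Figure D3:**
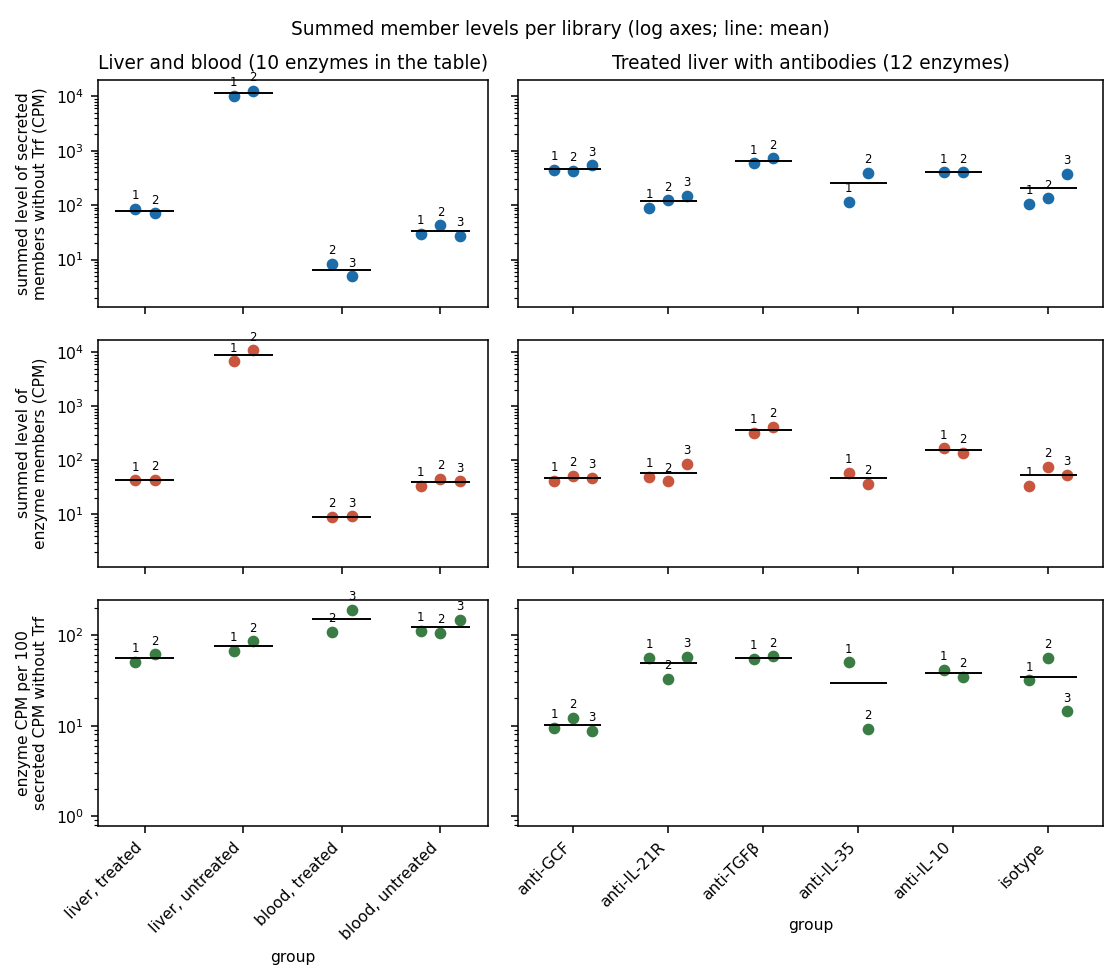
Summed CPM of the secreted genes without Trf (top), summed CPM of the enzyme genes (middle) and enzyme CPM per 100 secreted CPM without Trf (bottom) in each library, on log axes, with points numbered by replicate and lines at the group mean. Untreated liver stands above all other groups of the left table in both sums, and the anti-GCF libraries have the lowest ratios among antibody groups apart from anti-IL35 replicate 2.

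Each antibody was set against isotype in the second table. All 5 comparisons share the same 3 isotype libraries, so they are not independent of each other.

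The isotype libraries themselves differed by class. Replicate 3 was the highest of the 3 for 16 of 18 secreted genes, and replicate 2 for 11 of 12 enzyme genes. How many of all genes were highest in each isotype library was not counted. Alb had 48.25, 52.83 and 184.2 CPM in isotype replicates 1, 2 and 3, and Hpd had 1.46, 9.51 and 3.95 CPM. For every 100 secreted CPM the isotype libraries held 27.8, 49.3 and 13.6 enzyme CPM. The counts for anti-TGFb, anti-GCF and anti-IL10 are therefore also given without replicate 3. That library was singled out by its high secreted levels, so leaving it out raises the secreted differences by construction. Those counts show how far the calls depend on it and are no support for a difference. The share of all genes called without it is not given here.

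Anti-TGFb gave 19 higher calls of 32 members, beside 17.5% of all 16812 genes called higher and 10.0% called lower. They were 10 of 12 enzyme genes, 7 of 18 secreted genes, Fabp1 and Hnf4a. None was lower, also at an unadjusted p under 0.05 and by DESeq2, which called 22 higher. Pck1 had 23.11 and 51.96 CPM with anti-TGFb, against 0.197, 1.62 and 0.671 CPM with isotype, and its log2 fold change of 5.42 (SE 1.04, edgeR adjusted p = 0.00343) was the largest of any member. Tat, which opens tyrosine breakdown by removing its amino group, had 46.42 and 70.94 CPM with anti-TGFb, against 0.511, 5.69 and 2.24 CPM with isotype. Otc had 28.41 and 34.87 CPM with anti-TGFb, against 0.197, 3.31 and 1.12 CPM with isotype. Every anti-TGFb value of these 3 genes exceeded every isotype value by a wide margin, with log2 fold changes of 4.35 (SE 1.03) for Tat and 4.31 (SE 0.81) for Otc.

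Cps1 and Hpd also rose under anti-TGFb, by 4.20 (SE 0.81) and 3.90 (SE 0.81) on the log2 scale. The 4 cytochrome P450 genes rose less, between 2.45 for Cyp3a11 and 3.41 for Cyp2c29. Cyp1a2, which oxidises caffeine and aromatic amines, had 2.27 and 3.42 CPM with anti-TGFb, against 0.315, 0.556 and 0.373 CPM with isotype. Ass1 had 39.78 and 50.27 CPM with anti-TGFb, against 7.43, 13.63 and 10.17 CPM with isotype, a log2 fold change of 2.11 (SE 0.27) with the smallest adjusted p of the members, 0.000194 by edgeR. The enzyme genes that did not pass were Fbp1, with 25.49 and 31.89 CPM against 19.58, 24.17 and 21.76 CPM with isotype, and G6pc, with 0.851 and 0.929 CPM against 0.118, 0.404 and 0.298 CPM with isotype. G6pc encodes the phosphatase that releases glucose from hepatocytes, and both genes had groups that did not overlap.

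Fabp1 had 89.32 and 110.9 CPM with anti-TGFb, against 2.52, 15.12 and 7.19 CPM with isotype, and rose by 3.58 (SE 0.59) on the log2 scale. Hnf4a had 25.32 and 35.21 CPM with anti-TGFb, against 0.118, 3.84 and 1.04 CPM with isotype, and rose by 4.13 (SE 0.88). Neither gene had overlapping groups.

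The median log2 difference under anti-TGFb was 1.60 for the secreted and 3.08 for the enzyme genes, a gap that was not tested. The secreted genes called were Ttr, Gc, Rbp4, Apoa2, Apob, Apoc1 and Apoc3, with log2 fold changes between 1.77 and 2.71. Gc had 74.63 and 79.90 CPM with anti-TGFb, against 6.65, 16.13 and 24.25 CPM with isotype (log2 2.30, SE 0.45, edgeR adjusted p = 0.0035). Rbp4 had 14.26 and 17.95 CPM with anti-TGFb, against 1.42, 4.53 and 4.73 CPM with isotype. Alb had 237.8 and 291.1 CPM with anti-TGFb and lay above all isotype libraries, but its log2 difference of 1.48 (95% interval 0.38 to 2.58) did not pass edgeR's test, while DESeq2 called it. Trf had 19.34 and 22.13 CPM with anti-TGFb, against 14.90, 18.71 and 21.53 CPM with isotype, and the groups overlapped. None of the fibrinogen genes passed, with log2 differences between 1.08 and 1.28.

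Which secreted genes passed turned on isotype replicate 3. Without it, 29 members were higher under anti-TGFb, namely 17 of 18 secreted genes, 10 of 12 enzyme genes, Fabp1 and Hnf4a. The class medians were then 2.41 for the secreted and 3.24 for the enzyme genes. The T and NK cell markers summed to between 524.1 and 566.4 CPM with anti-TGFb, against 243.3 to 353.7 CPM with isotype, and their part in these values was not tested.

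In the anti-GCF libraries 7 members were higher and 1 lower, beside 31.6% of all genes called higher and 26.3% called lower, shares above those of the members. Trf had 50.81, 82.64 and 67.15 CPM with anti-GCF, against 14.90, 18.71 and 21.53 CPM with isotype, a log2 fold change of 1.86 (SE 0.27, edgeR adjusted p = 8.12e-05). Apoc1, which macrophages also express, had 41.40, 40.26 and 87.61 CPM with anti-GCF, against 2.24, 11.73 and 7.15 CPM with isotype, and rose by 2.99 (SE 0.66). Hpx had 21.45, 24.07 and 25.70 CPM with anti-GCF, against 3.30, 1.74 and 13.19 CPM with isotype, and rose by 1.98 (SE 0.70). The groups did not overlap for these 3 genes, and Ttr, Mup20 and Apob, the last with overlapping groups, were the other secreted genes called.

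Fbp1 went the other way, with 4.15, 7.61 and 4.64 CPM under anti-GCF, against 19.58, 24.17 and 21.76 CPM with isotype. It fell by 2.00 (SE 0.26) on the log2 scale, with an edgeR adjusted p of 3.26e-05. Ass1 was the only enzyme gene called higher under anti-GCF, with 19.95, 13.97 and 19.51 CPM, against 7.43, 13.63 and 10.17 CPM with isotype (log2 0.77, SE 0.25). The other 10 enzyme genes were not called, and for Tat, Cps1 and Otc the log2 differences were -1.23, -1.0 and -0.76, with overlapping groups. The median log2 difference was 1.12 for the secreted and 0.11 for the enzyme genes, against 0.11 over all genes.

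The anti-GCF count, given here without the share of all genes called in each fit, depended on which library was left out. Without isotype replicate 3 it was 17 higher, 15 of them secreted, and the secreted and enzyme medians were 2.03 and 0.16. Without any of the other 5 libraries it was between 2 and 4 higher, and Fbp1 was the 1 member called lower each time. Kupffer cell markers summed to between 5919 and 10750 CPM with anti-GCF, against 236.7 to 664.8 CPM with isotype, and all 10 were called higher. Of the 12 neutrophil markers, 10 were called lower with anti-GCF. The part of these other cells in the members' values was not tested.

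**Figure D4:**
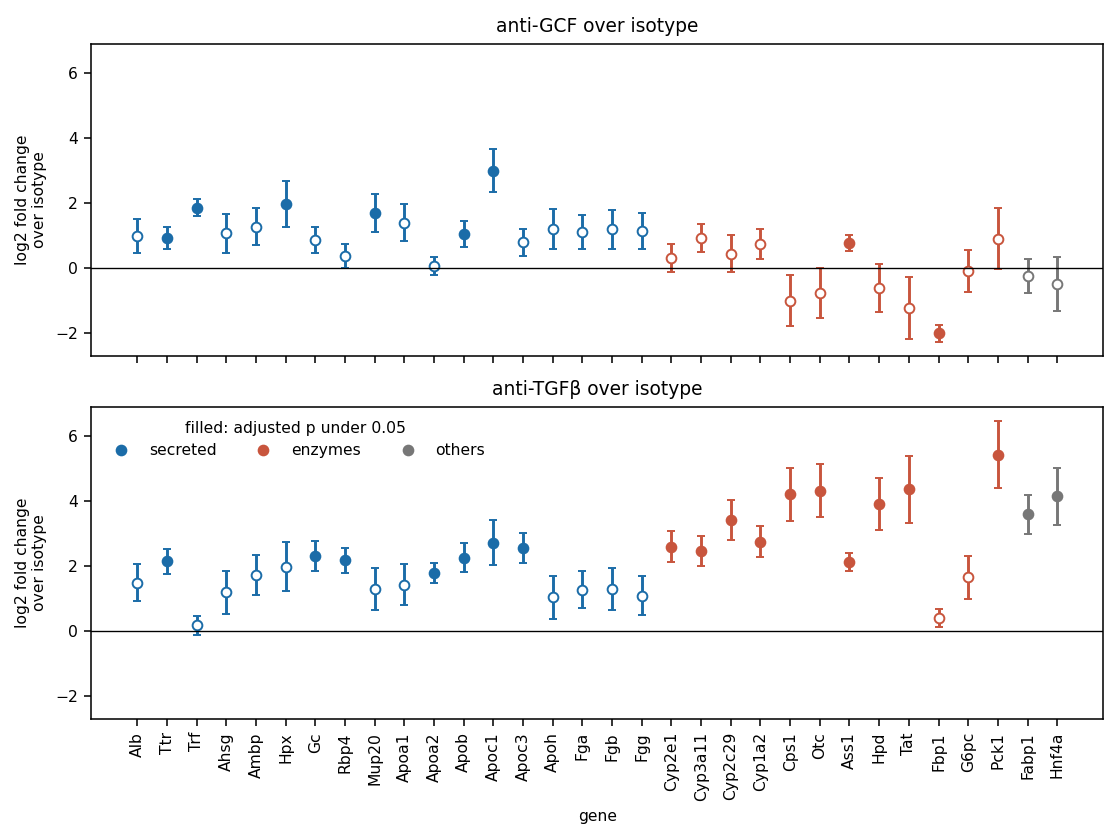
Log2 fold change of each of 32 members over isotype with anti-GCF (top) and with anti-TGFb (bottom), in blue for secreted genes, red for enzyme genes and grey for Fabp1 and Hnf4a, with bars for the SE and filled points for an adjusted p under 0.05. With anti-TGFb 10 of 12 enzyme points are filled, and with anti-GCF only Ass1 and Fbp1 are filled among the enzyme genes.

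Anti-TGFb and anti-GCF libraries were set against each other directly, a comparison added after the data had been seen. It called 20 members higher with anti-TGFb and 1 lower, beside 19.1% of all genes called higher and 16.3% called lower, and DESeq2 gave the same numbers. All 12 enzyme genes were higher with anti-TGFb, with a median log2 difference of 2.67, and so were Fabp1 at 3.82 and Hnf4a at 4.62. Of the 18 secreted genes 6 were higher (Ttr, Gc, Rbp4, Apoa2, Apob and Apoc3) and Trf was lower, with a median of 0.14.

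Single genes of each class are given next. Tat had 46.42 and 70.94 CPM with anti-TGFb, against 0.410, 2.57 and 0.673 CPM with anti-GCF, a log2 difference of 5.58 (SE 1.10, edgeR adjusted p = 0.0029). Cps1 had 22.86 and 29.23 CPM with anti-TGFb, against 0.458, 1.30 and 0.336 CPM with anti-GCF, a log2 difference of 5.20 (SE 0.86). Fgb had 20.96 and 22.07 CPM with anti-TGFb, against 17.01, 23.64 and 19.82 CPM with anti-GCF, a log2 difference of 0.09 (95% interval -1.17 to 1.36). Ahsg, the fetuin-A gene, had 25.49 and 29.63 CPM with anti-TGFb, against 24.25, 22.88 and 29.34 CPM with anti-GCF, a log2 difference of 0.11 (95% interval -1.18 to 1.41). Tat and Cps1, which lay well above the median of their class, had groups far apart. The secreted genes Fgb and Ahsg had groups that overlapped, with intervals that still allow more than a 2-fold difference either way. Over the whole classes the log2 differences ran from 1.34 to 5.58 for the enzyme and from -1.69 to 1.79 for the secreted genes, so the ranges met.

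For every 100 secreted CPM, Trf left out, there were 54.6 and 58.0 enzyme CPM with anti-TGFb, against 9.49, 12.2 and 8.75 with anti-GCF. With Trf, secreted sums were 606.8 and 748.1 CPM with anti-TGFb, against 493.6, 509.9 and 603.7 CPM with anti-GCF. Without Trf they were 587.5 and 726 CPM with anti-TGFb, against 442.8, 427.3 and 536.5 CPM with anti-GCF. The groups did not overlap with or without Trf, but they did under 2 other ways of summing. Without Alb the secreted sums were 369 and 457.1 CPM with anti-TGFb, against 294.6, 354.3 and 393.2 CPM with anti-GCF. On raw library totals they were 756 and 913.1 CPM with anti-TGFb, against 627.3, 637.6 and 761.6 CPM with anti-GCF. Enzyme sums lay further apart, at 320.7 and 421.4 CPM with anti-TGFb, against 42.0, 52.0 and 46.9 CPM with anti-GCF. Trf had 19.34 and 22.13 CPM with anti-TGFb, against 50.81, 82.64 and 67.15 CPM with anti-GCF. It was lower with anti-TGFb by a log2 difference of -1.69 (SE 0.31). Counts with a library left out are given next, without the share of all genes called in those fits. Without anti-TGFb replicate 2 the higher calls numbered 13, of which 9 were enzyme genes, and without any of the other 4 libraries between 15 and 16.

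In the wider lists of this comparison, 18 of 30 further liver enzyme genes were higher with anti-TGFb and 3 lower. Of 13 liver transcription factor genes 11 were higher and 1 lower, and of 12 liver transporter genes 7 were higher and 0 lower. Of the further secreted lists, 1 of 13 coagulation, 5 of 12 complement and 5 of 18 plasma protein genes were higher, and 0, 2 and 1 were lower in that order. Kupffer cell markers were lower in 10 of 10 cases with anti-TGFb, and neutrophil markers higher in 9 of 12, and their part in the split was not tested.

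Anti-IL10 gave 8 higher calls and 0 lower, beside 10.6% of all genes called higher and 6.98% called lower. Pck1 had 28.67 and 16.47 CPM with anti-IL10, against 0.197, 1.62 and 0.671 CPM with isotype, a log2 fold change of 4.69 (SE 1.02, edgeR adjusted p = 0.0123). Cyp2e1 had 24.70 and 23.67 CPM with anti-IL10, against 1.97, 7.91 and 5.78 CPM with isotype, and rose by 2.2 (SE 0.48). Hpx, the only secreted gene called by edgeR in the fit over all groups, had 35.49 and 36.79 CPM with anti-IL10, against 3.30, 1.74 and 13.19 CPM with isotype, and rose by 2.58 (SE 0.76). Groups did not overlap for these genes, and Cyp2c29, Cyp1a2, Otc, Ass1 and Hnf4a were the others called. Fbp1 was the 1 member with an unadjusted p under 0.05 in the lower direction, and DESeq2 called 11 higher and 0 lower, with the secreted gene Gc among those it added.

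These calls were few and moved with the libraries, as given next without the share of all genes called in each fit. Leaving out anti-IL10 replicate 1 left 1 call, leaving out anti-IL10 replicate 2 left 3, and leaving out isotype replicate 1 left 5. Without isotype replicate 3 there were 11, of which 9 were secreted genes. The neutrophil marker sum differed between the 2 anti-IL10 libraries, as its range above shows. Of the 8 T and NK cell markers 6 were called higher and 1 lower with anti-IL10, and of 7 erythroid markers 2 were called lower. Stellate cell and fibroblast markers summed to between 4.45 and 72.3 CPM with anti-IL10, against 1.69 to 4.68 CPM with isotype, with 2 of 6 tested called higher. The part of these markers in the members' values was not tested.

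Between anti-TGFb and anti-IL10, also compared after the data had been seen, no member was called in either direction, and 0% of all genes were called higher and 0% lower. Over all genes 1373 had an unadjusted p under 0.05, as did 11 members, all higher with anti-TGFb, while DESeq2 called 140 genes and no member. Cps1 had 22.86 and 29.23 CPM with anti-TGFb, against 5.11 and 4.58 CPM with anti-IL10, a log2 difference of 2.42 (95% interval 0.71 to 4.14). Of the 32 members, 27 were higher in both anti-TGFb libraries than in both anti-IL10 libraries, and 2 were lower. How many of all genes separated in this way was not counted, so these numbers are not read as a difference of the members. Fitted on these 4 libraries alone, 16 members were called higher with anti-TGFb, but the share of all genes called in that fit is not given here.

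With anti-IL21R no member was called, beside 1.08% of all genes called higher and 1.15% called lower. At an unadjusted p under 0.05 there were 0 higher and 1 lower, Alb, and DESeq2 called none. Alb had 26.38, 37.98 and 56.70 CPM with anti-IL21R, against 48.25, 52.83 and 184.2 CPM with isotype, a log2 difference of -1.23 (95% interval -2.25 to -0.22, edgeR adjusted p = 0.181). Pck1 had 0.665, 1.29 and 7.95 CPM with anti-IL21R, against 0.197, 1.62 and 0.671 CPM with isotype. Replicate 3 was the highest anti-IL21R library for 11 of 12 enzyme genes and 12 of 18 secreted genes, and no member had separate groups. Neither was counted over all genes, so these numbers are not read as particular to the members.

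With anti-IL35 no member was called either, beside 4.81% of all genes called higher and 4.51% called lower. At an unadjusted p under 0.05 there were 1 higher, Trf, and 1 lower, Ass1, and DESeq2 called none. The 2 anti-IL35 libraries differed in opposite ways by class. Replicate 2 was higher for 18 of 18 secreted genes and replicate 1 for 9 of 12 enzyme genes. The share of all genes higher in either library was not counted. Alb had 57.19 CPM in replicate 1 and 169.3 CPM in replicate 2, and Hpd had 5.36 CPM in replicate 1 and 1.39 CPM in replicate 2. They held 43.7 and 8.41 enzyme CPM per 100 secreted CPM, and Kupffer cell markers ranged between 315.3 and 2459 CPM over them, whose part in these values was not tested. Without anti-IL35 replicate 1, Trf was called higher, with a log2 fold change of 1.17.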

How the data were processed

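Neutrophil mRNA was sequenced in bulk from 24 libraries in 10 groups. Per the labels' protocols, RNA came from RNeasy Mini columns and libraries from the TruSeq Stranded mRNA kit. Tools listed in the submitters' processing notes, with no role, are STAR 2.5.3a, Bowtie2 2.2.5, DESeq2 and Partek, with the mm10 build, and the counting tool is not given in the sources used here. The deposited antibody table holds whole counts per gene. The deposited blood and liver table holds values treated as estimated counts per gene as the authors deposited them, since 44.4% were not whole, and these were rounded here.

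The tables were fitted separately with edgeR 4.0.16 in R 4.3.3 (limma 3.58.1), using filterByExpr by group, TMM scaling, a robust quasi-likelihood F test over all groups of a table, and Benjamini-Hochberg adjustment over all genes tested (threshold 0.05). The SE is the absolute log2 fold change over the square root of F, and intervals are 95%. A gene at 0 in a group was set against a floor of 3 counts over that group, which covers counting error only. The script was tested on simulated data. Alternatives were RLE and upper-quartile scaling, DESeq2 1.42.0, no low-count filter, replicate blocks, the compared groups alone, and each library left out. Sums were redone without Trf, without Alb and on raw totals.

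Every member is named, whatever its values, while other lists give only counts and sums. Members, lists and tests were chosen with earlier results of these data known.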

Additional observations from a re-analysis of the deposited data

Results flagged for a closer look

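For 16 members the log2 difference between treated and untreated libraries differed between liver and blood by edgeR's interaction test, given here as the difference in liver minus that in blood. Among the carriers and related plasma proteins it was -2.55 for Alb, -3.35 for Trf, -4.32 for Ahsg, -7.16 for Ambp, -3.87 for Hpx and -4.16 for Gc. The apolipoprotein genes gave -3.56 for Apoa1, -4.07 for Apob and -5.67 for Apoc1. The fibrinogen genes gave -7.45 for Fga, -5.73 for Fgb and -5.74 for Fgg. Apob and Fga were already near 0 in untreated blood, so a fall in blood could hardly have shown for them. Among the enzyme genes it was -3.67 for Cyp3a11, -6.48 for Ass1 and -3.07 for Fbp1. Mup20 was the 1 member with a positive value, 5.79, which depends on the prior count because Mup20 was at 0 in both treated blood libraries. No group had 4 or more libraries, so single libraries could not be tested for standing apart from their group.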

How the results depend on the processing

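Over 177 member calls under all settings, 2006 values kept direction and call, 141 lost the call and 4 reversed. The reversed ones were interactions without treated blood replicate 2, at 1.38 for Ahsg, 0.82 for Fgb, 0.40 for Fgg and 0.58 for Cyp3a11, against lowest values with a library left out of -5.42, -6.82, -6.84 and -4.76 in that order. With libraries left out in turn, members called higher ranged from 0 to 1 in treated against untreated blood and for anti-IL35, 0 to 1 for the interaction, 2 to 17 for anti-GCF, 17 to 29 for anti-TGFb, 1 to 11 for anti-IL10 and 13 to 16 for anti-TGFb over anti-GCF, and negative interactions from 6 to 17. In treated liver against treated blood, DESeq2 called 1 member lower and the fit on those groups alone 2. Anti-IL10 gave 5 higher with no low-count filter and 3 on its groups alone, and anti-TGFb over anti-IL10 gave 16 on theirs. Shares of all genes called under these settings, and under the replicate blocks below, are not given here.

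The labels do not say that a replicate number marks shared animals or batches. Correlations of same-numbered deviations lay between -0.07 and 0.06 in the blood and liver table. Against isotype, by title number, they lay between 0.04 and 0.22 for anti-GCF, 0.24 and 0.25 for anti-TGFb, 0.26 and 0.29 for anti-IL35, -0.08 and 0.02 for anti-IL10, and -0.21 and -0.01 for anti-IL21R. In anti-GCF and isotype 6 of 6 libraries correlated best with their own number, and in anti-IL21R and isotype 0 of 6, so a pairing was not established. With the replicate block by title number anti-GCF gave 15 higher, and by library-name number 18, both with Alb, Ahsg, Ambp, Gc, Apoa1, Apoc3, Apoh and Cyp3a11 added. Anti-IL10 gave 18 higher by library-name number, with Alb and Gc among those added. Both blocks called Alb under anti-TGFb, and the positive interaction count was 0 under both blocks.

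The mean secreted sum depended on single genes. Without Trf it was 77.8 CPM in treated liver, 6.54 in treated blood, 33.5 in untreated blood, 468.9 with anti-GCF and 401.9 with anti-IL10. Without Alb it was 249.5 in treated liver, 8996 in untreated liver, 347.4 with anti-GCF, 101.3 with anti-IL21R, 413.0 with anti-TGFb and 258.5 with anti-IL10. On raw totals it was 16940 in untreated liver, 378.3 in treated blood, 675.5 with anti-GCF, 834.6 with anti-TGFb and 509.2 with anti-IL10. The mean log2 ratio of enzyme to secreted level without Trf was -0.85 in treated liver, -0.41 in untreated liver, 0.52 in treated blood and 0.27 in untreated blood. Without Alb it was -2.53 in treated liver, -0.03 in untreated liver, -2.88 with anti-GCF, -0.86 with anti-IL21R, -0.16 with anti-TGFb and -0.76 with anti-IL10. The cause of these shifts was not tested beyond the gene left out. Counts at or near 0 in treated blood limit folds there.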

Other observations

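Liver gene lists beyond the members, compiled with earlier results known, were also counted between tissues. In treated liver over treated blood, 17 of 26 further liver enzyme genes were called higher and 1 lower, with 6 higher and 2 lower of 10 coagulation genes, 9 higher and 2 lower of 14 plasma protein genes, and 5 higher of 6 liver transcription factor genes. In untreated liver over untreated blood, 24 of 26 enzyme genes, 10 of 10 coagulation genes and 13 of 14 plasma protein genes were higher. Platelet markers were lower in 6 of 6 cases in both comparisons.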
